A study of Rattus norvegicus with 2 samples.

Results

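NF-kappaB is a family of transcription factors, and the genes of its subunits and of its inhibitors were followed here in 2 populations of rat natural killer (NK) cells. Subunits carry a Rel homology domain and bind DNA as dimers. In a resting cell most dimers are held in the cytoplasm by inhibitors of the IkappaB type, until the IkappaB kinase (IKK) marks the inhibitor for breakdown and the dimer enters the nucleus. Several inhibitor genes are themselves induced by NF-kappaB and so form negative feedback loops. In NK cells the pathway is known to be used by receptors for interleukin 1, interleukin 18, TNF family ligands and by some activating receptors.

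The genes are Nfkb1, Nfkb2, Rel, Rela and Relb for the 5 subunits, Nfkbia, Nfkbib and Nfkbie for classical IkappaB proteins, Nfkbiz for a nuclear IkappaB protein, and Tnfaip3 for the ubiquitin-editing enzyme A20. They were chosen by symbol, as all probe sets that the platform annotation gives to one of these 10 genes. It gave 9 probe sets to 8 of the genes, out of 31099 probe sets and 14217 named genes on the array. No probe set was annotated to Rel, which encodes c-Rel, or to Nfkbie, which encodes IkappaB epsilon, so both are absent from the results. No probe set listed a member together with another gene.

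NK cells were sorted from spleens of PVG.7b rats aged 8 to 12 weeks, 9 rats in all, as CD3-negative cells with NKR-P1A. One population carried the inhibitory receptor NKR-P1B without Ly49s3, and the other the activating receptor Ly49s3 without NKR-P1B. Before the sort, cells with CD5, CD45RA, CD68, kappa light chains or the T cell receptor of alpha-beta type had been removed with antibodies on beads. Purity was above 90% per the labels, no treatment is named, and the sources used here do not say how the rats' RNA was pooled. Each population was hybridised to 1 array, so no test was possible and every difference describes these 2 arrays. Fewer cells with a transcript and less of it per cell cannot be told apart.

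Signal is in arbitrary units, with a median over all probe sets of 19.6 for NKR-P1B+ and 21.3 for Ly49s3+ cells. Signals below 20.4, the median of both arrays together, were raised to that floor. A gene with a signal above the floor on at least 1 array counted as measured, and 9114 genes did. The difference is the log2 signal of NKR-P1B+ cells minus that of Ly49s3+ cells, and a gene was counted as apart at 1.5-fold. As an error, the differences of the members, and of other listed genes measured on both arrays and at least 1.5-fold apart, are given with the SD between probe sets of one gene at like signal, which ran from 0.18 in the brightest to 0.34 in the dimmest of 5 ranges. It covers disagreement between probe sets, not variation between rats, sorts or arrays, and the number of arrays limits the precision. Klrb1b, the gene of the sorted NKR-P1B, had 1399 in NKR-P1B+ cells and 29.4 in Ly49s3+ cells.

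Because several of these genes are known targets of NF-kappaB itself, the sequence before their start sites is shown first. The kappaB consensus is GGG, then a purine, any base, A or T, a pair of pyrimidines and CC. It was searched on both strands in windows of 250 bases before to 50 bases after each gene's start, from RefSeq on the rat assembly GRCr8. Windows were found for 9 of the 10 genes, all but Relb. Below are the 250 bases before the start, 5′ to 3′ on the gene's strand, of 4 measured members with a match there and of Nfkbib, which had none, with matches in capitals.

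Nfkbia: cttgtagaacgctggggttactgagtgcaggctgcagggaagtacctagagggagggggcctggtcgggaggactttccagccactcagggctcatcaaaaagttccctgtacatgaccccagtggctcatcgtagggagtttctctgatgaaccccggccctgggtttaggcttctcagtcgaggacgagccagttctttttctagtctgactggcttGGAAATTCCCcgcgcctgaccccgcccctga
Nfkb2: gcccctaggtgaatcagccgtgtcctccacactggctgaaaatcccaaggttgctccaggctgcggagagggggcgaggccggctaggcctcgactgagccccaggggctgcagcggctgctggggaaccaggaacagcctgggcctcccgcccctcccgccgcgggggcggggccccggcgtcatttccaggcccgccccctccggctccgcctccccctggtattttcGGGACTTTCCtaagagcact
Nfkbiz: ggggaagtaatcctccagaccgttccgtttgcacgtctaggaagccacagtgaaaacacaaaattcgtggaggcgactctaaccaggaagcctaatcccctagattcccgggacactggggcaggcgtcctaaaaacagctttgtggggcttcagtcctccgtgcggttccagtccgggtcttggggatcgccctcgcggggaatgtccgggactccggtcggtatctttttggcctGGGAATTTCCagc
Tnfaip3: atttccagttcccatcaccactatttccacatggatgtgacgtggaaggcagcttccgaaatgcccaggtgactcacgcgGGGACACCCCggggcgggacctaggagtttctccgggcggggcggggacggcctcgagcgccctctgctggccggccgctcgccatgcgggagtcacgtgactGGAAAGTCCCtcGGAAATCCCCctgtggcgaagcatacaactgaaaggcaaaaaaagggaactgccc
Nfkbib: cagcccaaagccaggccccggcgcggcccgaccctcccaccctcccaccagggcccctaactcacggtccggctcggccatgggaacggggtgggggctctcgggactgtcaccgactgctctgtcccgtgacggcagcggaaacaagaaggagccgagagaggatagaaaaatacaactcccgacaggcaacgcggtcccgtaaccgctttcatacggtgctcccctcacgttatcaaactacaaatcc

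These stretches lie at chr6:78597073-78597322 on the minus strand for Nfkbia, chr1:255108124-255108373 on the plus strand for Nfkb2, chr11:58251471-58251720 on the plus strand for Nfkbiz, chr1:15543980-15544229 on the minus strand for Tnfaip3 and chr1:93181388-93181637 on the minus strand for Nfkbib. The match of Nfkbia, GGAAATTCCC, began 31 bases before the start. That of Nfkb2, GGGACTTTCC, began 20 bases before it, and that of Nfkbiz, GGGAATTTCC, 13 bases before it. Tnfaip3 had 3 matches, which began 170, 67 and 55 bases before the start.

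Of the 9 windows 7 held a match, against 4.18% of 33469 windows of the same length in the table. Nfkb1 had the 10-base word found at Nfkbiz, starting at base 4 after its start. Rel had a pair of overlapping matches and Nfkbie had 1, although neither has a probe set here. Rela and Nfkbib had none. A match is a description of these letters and not a site of binding, and the annotated start sites fix the windows.

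Of the 8 measured members, 6 had a higher signal in NKR-P1B+ cells and 2 in Ly49s3+ cells. Nfkb2 and Nfkbib were at least 1.5-fold higher in NKR-P1B+ cells, just past the threshold, and no member was so in Ly49s3+ cells. Over all measured genes the share past 1.5-fold was 5.06% toward NKR-P1B+ cells and 5.72% toward Ly49s3+ cells, and 47.6% had a log2 difference above 0. The median log2 difference over the 8 members was 0.29, beside −0.017 over all measured genes. With log2 of the signal plus 32 in place of the floor, Nfkb2 and Nfkbib had log2 differences of 0.56 and 0.50 and neither reached 1.5-fold. That setting put 3.03% of all measured genes at least 1.5-fold higher in NKR-P1B+ cells and 2.49% in Ly49s3+ cells. All 8 members were above the floor on both arrays.

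**Figure D1:**
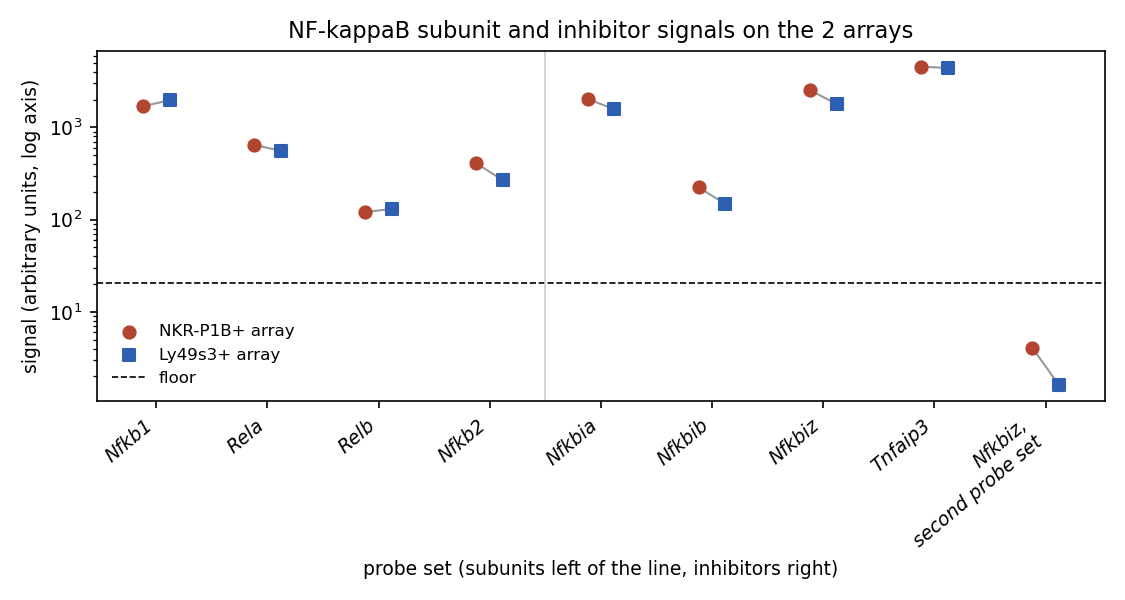
Signal of each of the 9 probe sets (arbitrary units, log axis) in NKR-P1B+ cells (circles) and Ly49s3+ cells (squares), with the floor of 20.4 dashed; 1 array per population. The 4 inhibitors at right slope down from NKR-P1B+ to Ly49s3+ or stay level (Tnfaip3, 4561 and 4414), Nfkb1 and Relb slope up, and the second Nfkbiz probe set is under the floor.

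The subunits differed among themselves. Nfkb1 encodes p105, the precursor of p50, and had a signal of 1698 in NKR-P1B+ cells and 1971 in Ly49s3+ cells. It was 1.16-fold higher on the latter, with a log2 difference of −0.22 and a probe set SD of 0.18. Rela encodes p65, the common partner of p50 and a strong activator of transcription, and had 648 and 558. It was 1.16-fold higher in NKR-P1B+ cells (log2 difference 0.21, SD 0.18). The genes of the p50 and p65 chains thus lay on opposite sides, each by little more than the spread between probe sets.

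Nfkb2 and Relb encode the pair of the non-canonical arm, p100, which is processed to p52, and RelB. Nfkb2 had 408 in NKR-P1B+ cells and 267 in Ly49s3+ cells, which made it the member with the widest difference, 1.53-fold (log2 difference 0.61, SD 0.23). Of the measured genes 4.69% had a higher difference. Among the 1565 other genes within 0.5 log2 units of its mean signal the share was 2.24%. Relb had 121 and 131, a log2 difference of −0.12 with an SD of 0.24, so its values were apart by less than the probe set spread. Unprocessed p100 also acts as an inhibitor of dimers with RelB.

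Signals of the 4 measured inhibitors were all higher in NKR-P1B+ cells, with a median log2 difference of 0.44, beside 0.049 for the 4 measured subunits. Nfkbia encodes IkappaB alpha, the fast and strongly induced inhibitor of p65 dimers. It had 2038 in NKR-P1B+ cells and 1576 in Ly49s3+ cells, 1.29-fold higher (log2 difference 0.37, SD 0.18). Nfkbib encodes IkappaB beta, which is released more slowly, and had 223 and 148, 1.51-fold higher (0.59, SD 0.24). Both classical inhibitors on the array therefore lay on the same side as Rela and opposite to Nfkb1.

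Nfkbiz encodes IkappaB zeta, a nuclear protein that binds p50 and switches on a second set of genes. Its brighter probe set had 2546 in NKR-P1B+ cells and 1791 in Ly49s3+ cells, 1.42-fold higher (0.51, SD 0.18). This difference was 2.79 times the probe set SD, the highest such multiple of the members. Among the 249 other genes of like mean signal 2.81% had a higher difference. The other Nfkbiz probe set had 4.1 and 1.6, both below the floor, and gives no difference. Nfkbiz thus rests on 1 of its 2 probe sets.

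Tnfaip3 encodes A20, which edits ubiquitin chains upstream of IKK and ends signalling. It had 4561 in NKR-P1B+ cells and 4414 in Ly49s3+ cells, a log2 difference of 0.047 with an SD of 0.18, so no difference beyond the probe set spread was seen. Its signal stood in the upper part of the array range, whose highest values were 6639 and 6622. Tnfaip3 had the most consensus matches of the members before its start. Of the other measured members with a match, Nfkb2, Nfkbiz and Nfkbia had log2 differences of 0.61, 0.51 and 0.37, and Nfkb1 −0.22. Rela and Nfkbib, with none, had 0.21 and 0.59. A link between the matches and the differences of the members was not tested.

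**Figure D2:**
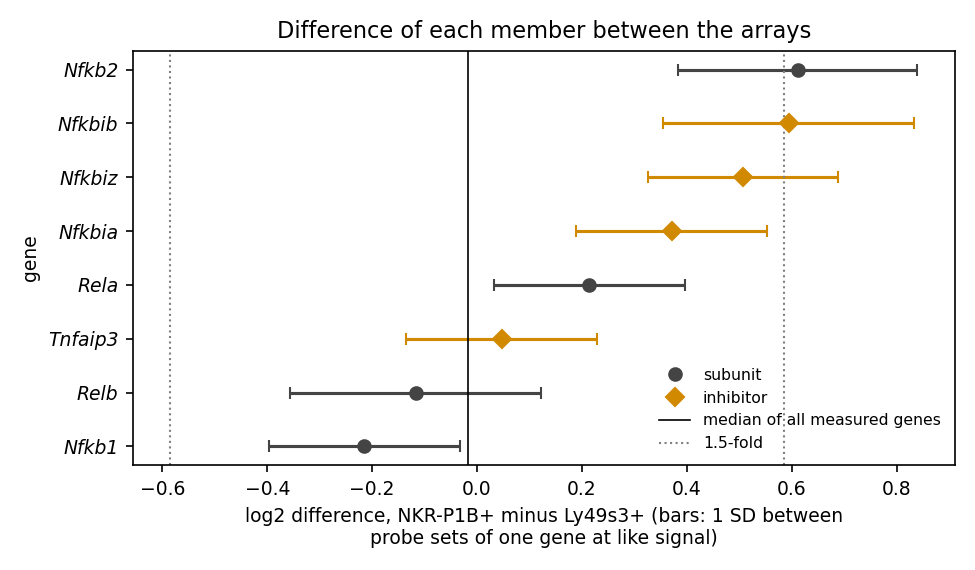
Log2 difference (NKR-P1B+ minus Ly49s3+) of the 8 measured genes, subunits as circles and inhibitors as diamonds, with bars of 1 SD between probe sets of one gene at like signal; the solid line is the median of all measured genes and dotted lines mark 1.5-fold. Values run from −0.22 for Nfkb1 to 0.61 for Nfkb2, and only Nfkb2 and Nfkbib are past the dotted line.

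Differences between members do not change with a factor that applies to a whole array, so they were set against each other. The ratio of Nfkb2 to Nfkb1 signal was 1.77-fold higher in NKR-P1B+ cells than in Ly49s3+ cells, a gap of 0.83 in log2 difference with a combined SD of 0.29. Against Nfkb1, the gap of Nfkbia was 0.59 (SD 0.26) and that of Nfkbiz 0.72 (SD 0.26), a 1.65-fold shift. Rela and Nfkb1 were apart by 1.35-fold (gap 0.43, SD 0.26). Nfkb2 and Relb, the non-canonical pair, were apart by 1.66-fold (gap 0.73, SD 0.33). These ratios were taken after the values of the members had been seen.

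**Figure D3:**
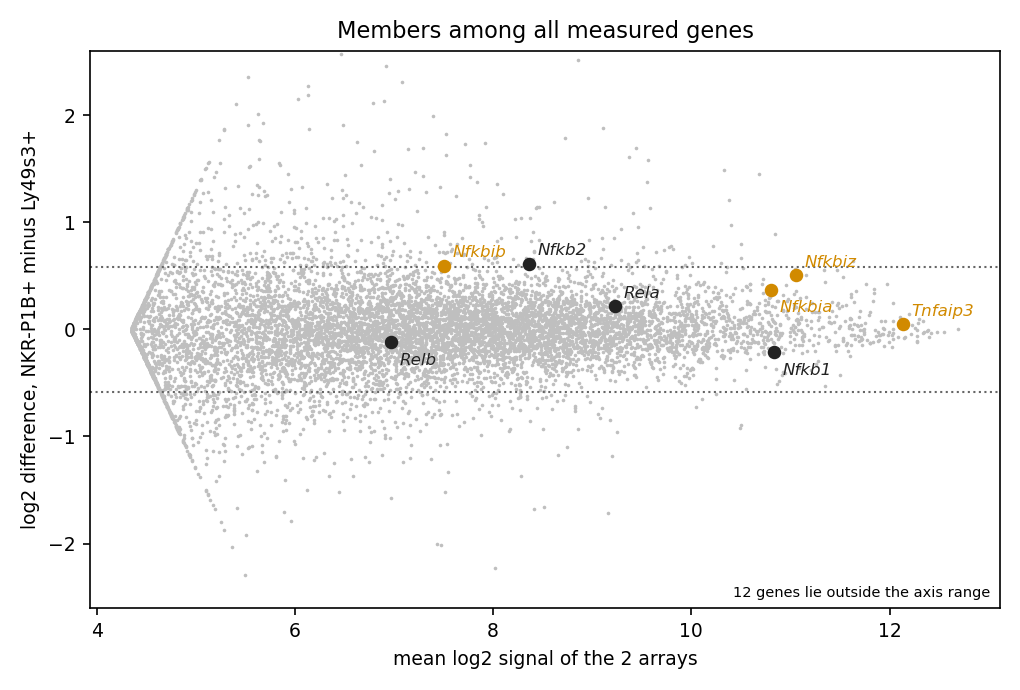
Log2 difference (NKR-P1B+ minus Ly49s3+) against mean log2 signal for the 9114 measured genes (grey), with subunits in black and inhibitors in orange; dotted lines mark 1.5-fold, and 12 genes are outside the axis range. Nfkb2, Nfkbib, Nfkbiz and Nfkbia sit toward the upper side of the cloud at their signal and Nfkb1 toward the lower side (of genes of like signal 7.74% were higher than Nfkbia and 8.44% lower than Nfkb1), with Tnfaip3, Relb and Rela between them.

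The array scale bears on directions. Poly-A control RNAs, of which 17 probe sets were above the floor on both arrays, had a median log2 difference of −0.53, with values from −0.97 to 0.21. Scaling the arrays to them moved the median of all measured genes from −0.017 to 0.50 and every member by the same step. Nfkb1 then had a log2 difference of 0.32 and Relb 0.41, so both changed sign, and all 8 members were above 0, as were 91.7% of all measured genes. Relative to the median of all genes, 6 of 8 members were above and Nfkb1 and Relb below, under this scaling and under each of the other 7 settings. Directions in the text are those on the deposited scale.

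**Figure D4:**
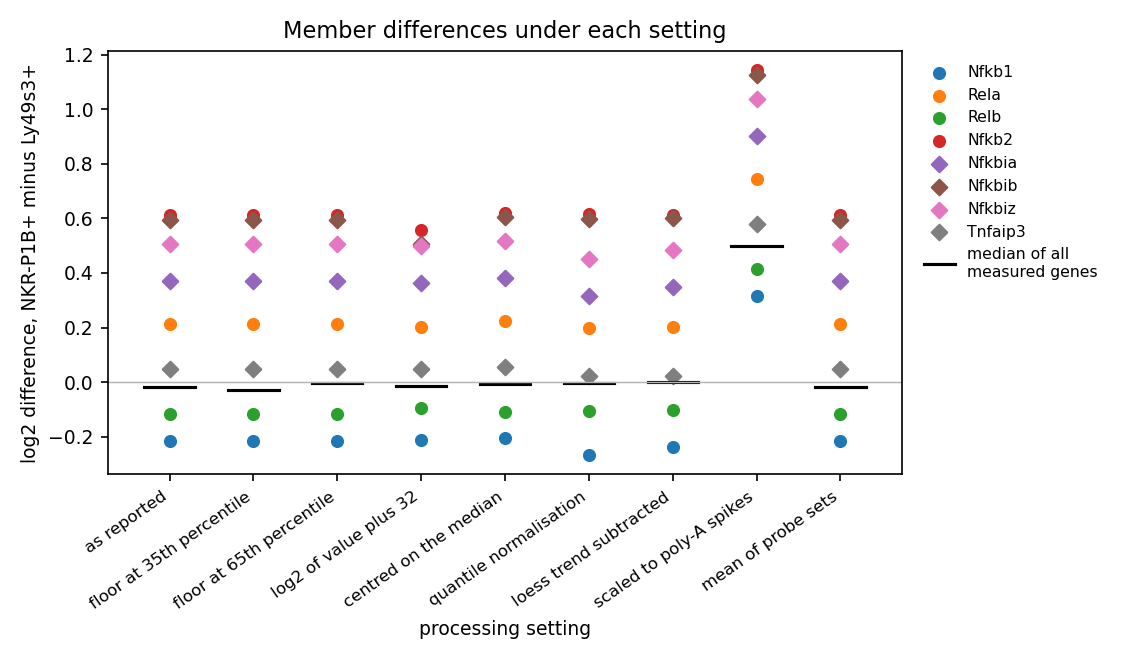
Log2 difference (NKR-P1B+ minus Ly49s3+) of each measured member as reported and under 8 other settings, subunits as circles and inhibitors as diamonds; black bars give the median of all measured genes. The members keep nearly the same order in every column, with Nfkb2 highest and Nfkb1 lowest, and scaling to the poly-A spikes lifts them together with the median.

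The rest of the pathway was examined through 6 lists, beginning with ligands. Of 16 genes of ligands that activate NF-kappaB, 11 were on the array and 6 were measured. Their median log2 difference was 0.0047, with 3 above 0 and 3 below, beside 47.6% of all measured genes above 0. Tnf, the prototype inducer of the classical arm, was at least 4.29-fold higher in NKR-P1B+ cells, at 87.5 against 8.7, which is under the floor. Tnf has 2 probe sets, neither above the floor on both arrays, and this value is that of the brighter one. Ltb, which encodes the lymphotoxin beta chain and signals through the non-canonical arm, had 2020 and 874, 2.31-fold higher (1.21, SD 0.18). Tnfsf4, the gene of OX40 ligand, ran the other way by 2.58-fold, at 23.5 and 60.7 (log2 difference −1.37, SD 0.34). Tnfsf9 had 99.9 and 103, Il18 had 340 and 327, and Il33 had 9.8 and 21.9. The interleukin 1 genes Il1a and Il1b did not reach the floor on either array.

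Of 24 receptor genes, 15 were on the array and 6 were measured, with a median of 0.52 and 4 above 0. Among all measured genes 47.6% were above 0, and 5.06% and 5.72% were at least 1.5-fold higher in NKR-P1B+ and Ly49s3+ cells. Tnfrsf25, the gene of death receptor 3, was at least 1.5-fold apart, at 1108 in NKR-P1B+ cells and 194 in Ly49s3+ cells (5.73-fold, log2 difference 2.52, SD 0.18). Tnfrsf1a and Tnfrsf1b encode the TNF receptors. The former had 214 and 215 and the latter 281 and 193 (0.54, SD 0.23). Tnfrsf9, the gene of the costimulatory receptor 4-1BB, had 82.7 and 56.0 (0.56, SD 0.34), and Ltbr, the lymphotoxin beta receptor, had 28.9 and 5.2, at least 1.42-fold higher in NKR-P1B+ cells. Il1rap, the shared chain of interleukin 1 family receptors, had 29.7 and 41.4 (−0.48, SD 0.34). The count of 1 receptor past 1.5-fold depended on the setting, and the value of Ltbr is a bound. With the floor at the 35th percentile 2 receptors were higher in NKR-P1B+ cells and 1 in Ly49s3+ cells, and the median was 0.24. By that floor the shares of all measured genes were 6.83% and 9.75%. There were 2 receptors higher with log2 of the signal plus 32, with quantile normalisation and with the loess trend removed, and 4 with scaling to the poly-A RNAs. The shares of all measured genes higher in NKR-P1B+ cells by these 4 settings were 3.03%, 5.78%, 5.74% and 38.0%. No probe set was annotated to Il18r1 or Il18rap.

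Between receptors and inhibitors stand the kinases and their adaptors, whose median difference was near 0 on the deposited scale. Of 29 such genes 25 were on the array and all of these were measured, with a median of −0.028, 12 above 0 and 13 below. Over all measured genes 47.6% were above 0, 5.06% were at least 1.5-fold higher in NKR-P1B+ cells and 5.72% in Ly49s3+ cells. Irak2, a kinase-like adaptor of Toll-like and interleukin 1 receptors, was the 1 gene at least 1.5-fold apart on its brightest probe set, at 984 in NKR-P1B+ cells and 508 in Ly49s3+ cells (1.94-fold, log2 difference 0.95, SD 0.18). Its relative Irak1 had 376 and 495 (−0.40, SD 0.18), and the adaptor gene Myd88 829 and 620 (0.42, SD 0.18). For the ubiquitin ligase gene Traf6 (756 and 863) and the kinase gene Ripk1 (266 and 256) probe sets disagreed, since 4 of Traf6 ranged from −0.42 to 1.06 and 2 of Ripk1 from 0.055 to 0.82. The brightest of the list were Prkcb, a protein kinase C gene (1739 and 1785), Tab2, an adaptor of the kinase TAK1 (1177 and 1028), and Chuk. Prkcb has 3 probe sets, whose differences ranged from −0.11 to 0.50. Chuk and Ikbkb, the genes of the catalytic IKK subunits, had 1035 and 1075, and 162 and 157. Ikbkg, the regulatory IKK subunit, had no annotated probe set. The list of the non-canonical arm leaves out its members Nfkb2, at 1.53-fold, and Relb, which are given above. Of its 8 measured genes, 7 were above the floor on both arrays and within 1.5-fold. The eighth is Ltbr with its lower bound, and the median was 0.030. The floor at the 35th percentile and log2 of the signal plus 32 each put 1 gene of this arm past 1.5-fold, and poly-A scaling 4. Toward NKR-P1B+ cells, these settings put 6.83%, 3.03% and 38.0% of all measured genes past 1.5-fold. Its brightest genes were Chuk, Birc3 (888 and 776) and Birc2 (200.4 and 216), the latter pair being inhibitors of apoptosis that act as ubiquitin ligases. Map3k14, the gene of its kinase NIK and chosen after its value was seen, had 57.4 and 44.5 (0.37, SD 0.34).

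Of other inhibitors and deubiquitinases 17 were measured, 9 above 0 and 8 below, with a median of 0.041. Past 1.5-fold lay 3 toward NKR-P1B+ cells and 1 toward Ly49s3+ cells, beside 5.06% and 5.72% of all measured genes. Nfkbid, which encodes the nuclear protein IkappaB NS and is a relative of Nfkbiz, had 250 in NKR-P1B+ cells and 103 in Ly49s3+ cells (2.44-fold, log2 difference 1.28, SD 0.24). Zc3h12a, the gene of the RNase regnase 1 that degrades inflammatory transcripts, had 134 and 67.6 (1.99-fold, 0.99, SD 0.31), and Nfkbil1 56.7 and 36.2 (1.57-fold, 0.65, SD 0.34). N4bp1 had 263 and 501 on its brightest probe set, 1.91-fold higher in Ly49s3+ cells (−0.93, SD 0.18), but its 3 probe sets ranged from −0.93 to 0.25. Tax1bp1, the gene of an A20 adaptor, had 2217 and 1821. Chosen after their values were seen, Bcl3, another nuclear IkappaB gene, had 111 and 84.4, with log2 differences of −0.38 and 0.39 on its 2 probe sets above the floor, and the deubiquitinase gene Cyld had 131 and 118, with −0.86 on its other probe set. Tnip1, the gene of an A20 partner, had 603 and 586, and the SUMO ligase gene Pias1 537 and 563.

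Known target genes of NF-kappaB were mostly higher in NKR-P1B+ cells. Of 47 listed genes 46 were on the array and 32 were measured, with a median log2 difference of 0.35. Of these, 28 were above 0, 11 were at least 1.5-fold higher in NKR-P1B+ cells and 1 in Ly49s3+ cells, beside 47.6%, 5.06% and 5.72% of all measured genes. Above the floor on both arrays were 29, with 19 of them within 1.5-fold. The rest were Tnf and, chosen after their values were seen, Nos2 (32.6 and 17.7) and Il2 (24.7 and 4.6). They were above the floor in NKR-P1B+ cells alone, so their direction was fixed by the rule for a measured gene. Tnf, Nfkbid, Ltb and Zc3h12a led the list. Chosen after their values were seen, the adaptor gene Traf1 had 79.5 and 40.2 (1.98-fold, 0.98, SD 0.34), the adhesion gene Icam1 364 and 201 (1.81-fold, 0.86, SD 0.23), and the survival gene Bcl2a1 898 and 549 (1.64-fold, 0.71, SD 0.18). The activation marker gene Cd83, chosen likewise, had 1901 and 965 (1.97-fold, 0.98, SD 0.18).

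The 3 targets named for their signal were the chemokine genes Ccl5, with 4924 and 4454, Ccl3, with 4186 and 3234, and Ccl4, with 4129 and 3275, all within 1.5-fold. Bcl2l1, the gene of the survival protein Bcl-xL, was 1.52-fold higher in Ly49s3+ cells, at 109 against 72.0 (−0.60, SD 0.31), and was the 1 gene counted there, which 5 of the 8 other settings left within 1.5-fold. The remaining 14 on the array, Il2ra and Csf2 among them, were below the floor on both. The list shares 4 measured genes with the inhibitor list and 2 each with the ligand, receptor, IKK and non-canonical lists. The shared receptor genes are Tnfrsf9 and Tnfrsf1b. These counts and medians are therefore not independent of one another.

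**Figure D5:**
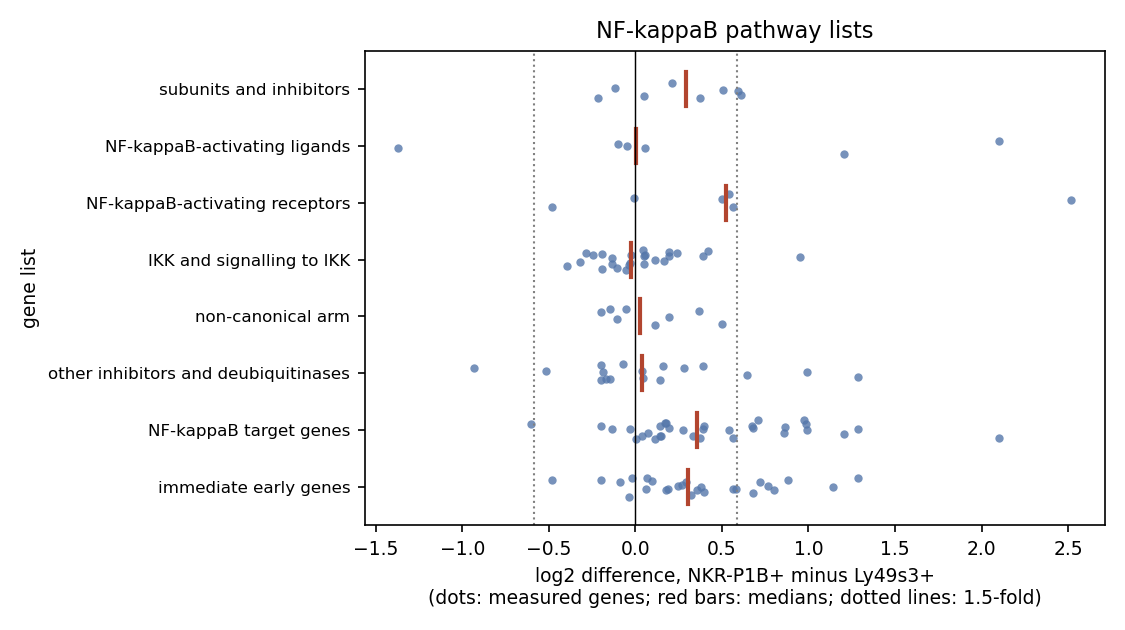
Log2 difference (NKR-P1B+ minus Ly49s3+) of every measured gene (dots) of the members, the 6 pathway lists and the immediate early genes, with medians as red bars and 1.5-fold as dotted lines. Medians are 0.29 for the members, 0.52 for the 6 measured receptors, 0.35 for target genes and 0.31 for immediate early genes. They are near 0 for ligands, IKK genes, the non-canonical arm (without Nfkb2 and Relb) and the other inhibitors.

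Genes were also grouped by the consensus. Among 383 measured genes with a match in their window, members left out, 9.14% were at least 1.5-fold higher in NKR-P1B+ cells and 6.01% in Ly49s3+ cells. Among 7330 measured genes with a window and no match the shares were 4.97% and 5.58%, and the medians were 0.020 with and −0.016 without a match. With the target list left out as well, a step added after the data were seen, the shares were 8.75% and 6.10% of 377 genes with a match, and 4.88% and 5.58% of 7313 without. Of 34 target genes with a window 12 held a match. The median of the 6 measured ones with a match was 0.28, and that of 17 without was 0.54. Those 6 were Ltb (1.21), Cd83 (0.98), Bcl3 (0.39), Cxcl10 (0.17), Irf1 (0.15) and Tnip1 (0.041).

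Immediate early genes, which many cells induce within minutes of handling or stimulation and to which Nfkbia, Nfkbiz and Tnfaip3 are often counted, were on the same side. Of 26 measured, 21 were above 0 and 7 at least 1.5-fold higher in NKR-P1B+ cells, none in Ly49s3+ cells, with a median of 0.31. Over all measured genes the shares were 47.6%, 5.06% and 5.72%. The stress transcription factor gene Atf3 had 206 and 84.4 (2.44-fold, 1.29, SD 0.24), and Ppp1r15a, which restores translation after stress, 526 and 238 (2.21-fold, 1.14, SD 0.18). Gadd45a had 246 and 134 (1.84-fold, 0.88, SD 0.24), and the MAP kinase phosphatase gene Dusp1 1908 and 1096 (1.74-fold, 0.80, SD 0.18). The AP-1 genes Fos and Jun had 3215 and 3003, and 3110 and 2622, and Ier2 2438 and 2139. Without the 3 target genes that also stand in this list, the median of the target genes was 0.33 over 29 genes, with 10 at least 1.5-fold higher in NKR-P1B+ cells. The part of these genes in the results of the members was not tested.

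Markers of other cells, which also express NF-kappaB genes, were read on both arrays. Of antigen-presenting cell markers 10 of 14 on the array were measured, with signals summed over the 14 of 3095 in NKR-P1B+ cells and 2237 in Ly49s3+ cells. Itgax, an integrin gene, had 2281 and 1716. Of the listed MHC class II genes, those apart by more than the probe set SD, or by a bound, were higher in NKR-P1B+ cells. RT1-Da had 346 and 97.7 (log2 difference 1.82, SD 0.24) and Cd74 197 and 120.0 (0.72, SD 0.24). RT1-Db1 had 42.3 and 17.4 and RT1-Bb 29.5 and 7.4, at least 2.07-fold and 1.45-fold higher in NKR-P1B+ cells. RT1-DMb was level, at 96.8 and 96.2. RT1-Ba had 30.2 and 36.7 (−0.28, SD 0.34) and RT1-DMa 26.3 and 30.6 (−0.22, SD 0.34), both dim and within that spread. Batf3, a transcription factor gene of dendritic cells, was at least 4.08-fold higher in Ly49s3+ cells, at 4.2 and 83.2. Flt3, Cd80, Clec9a and Ciita were below the floor on both.

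Of macrophage and monocyte markers 5 of 16 were measured, with sums of 676 and 480. Lyz2, the gene of a lysozyme, had 356 and 133 (1.42, SD 0.23), Ctss 154 and 185, and Cybb 38.6 and 29.4, whereas Cd68, Cd14, Csf1r, Adgre1 and Cd163 were below the floor on both. Of B cell markers 5 of 11 were measured, with sums of 990 and 772. Cd37 had 613 and 388 (0.66, SD 0.18), Cd22 103 and 52.9 (0.96, SD 0.31) and Bank1 156 and 248 (−0.67, SD 0.23), and Cd79b and Ms4a1 were below the floor on both.

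T cell markers had sums of 3144 and 2912, with 9 of 12 measured. Trat1, an adaptor gene of the T cell receptor complex, showed their widest difference and was 4.02-fold higher in Ly49s3+ cells, at 86.2 and 346 (−2.01, SD 0.24). Cd3g lay on that side too, with 22.3 and 42.9 (−0.94, SD 0.34), and Cd3d and Cd3e did not reach the floor on either array. Cd5 had 92.7 and 40.8 (1.18, SD 0.34) and Cd6 273 and 179 (0.61, SD 0.23). The brightest were Cd2, with 1390 and 1250, Lat, with 594 and 527, and Bcl11b, with 637 and 429.

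NK cell markers fit the label of both arrays, with all 13 on the array measured and sums of 32182 and 28220. Of these 8 were above 0 and 5 below, beside 47.6% of all measured genes above 0. The cytotoxic granule gene Gzmb was 1.56-fold higher in NKR-P1B+ cells, at 3973 and 2549 (0.64, SD 0.18). Gzmm had 3922 and 3901, Klrb1a 3740 and 3813, and Prf1, the gene of perforin, 4024 and 3006. Eomes and Ctsw, chosen after their values were seen, were higher in Ly49s3+ cells. Eomes had 1237 and 1820.5 (−0.56, SD 0.18) and Ctsw 485 and 624 (−0.36, SD 0.18).

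The sums of all 5 marker lists were higher in NKR-P1B+ cells, but for B cells and macrophages the gap was smaller than that of 1 gene. As a step added after the data were seen, each sum was taken again without the gene that added most to its gap. Leaving out that gene could only narrow or reverse a gap, and no gene pulling the other way was left out, so no side is read from it. Without Cd37 the B cell sums were 377 and 384, and without Lyz2 the macrophage sums were 320 and 347, both then higher in Ly49s3+ cells. Bank1, at 156 and 248, stayed in the B cell sums, and Ctss, at 154 and 185, in the macrophage sums. Without Itgax the antigen-presenting sums were 814 and 520, without Bcl11b the T cell sums 2507 and 2482, and without Gzmb the NK sums 28210 and 25671. The part of these cells in the results of the members was not tested.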

How the data were processed

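Splenic NK cells of 2 sorted populations were each measured on 1 Affymetrix rat array. The authors deposited 1 linear intensity per probe set, made with MAS5 per the submitters' processing notes. The sources used here give no version or scaling target. The 2% trimmed mean was 100.04 on both arrays, so the values are linear, not centred, and scaled to a common level. For the actin controls the 3' probe set exceeded the 5' one by a ratio of 11.9 on the NKR-P1B+ and 13.2 on the Ly49s3+ array. No per-sample column was left unused.

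Of 31099 probe sets 20832 had 1 gene symbol, and matching 20764 of them by gene number to a RefSeq table of GRCr8 changed 0 symbols. Promoter windows came from RefSeq on GRCr8. Probe sets listing several genes were not used. Signals were floored at the 50th percentile of non-control values, 20.4, then put on the log2 scale. Each gene took the values of its brightest probe set by mean log2 signal. With 1 array per population no p-value was computed. The probe set SD is that of the difference between the 2 brightest probe sets of a gene, divided by the square root of 2, over 1993 genes in 5 ranges of signal. The steps were tested on simulated data with true changes wider than 1.5-fold in genes well above the floor. Differences near 1.5-fold were therefore not covered by it.

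The members, the 12 gene lists (6 of the pathway, 1 of immediate early genes and 5 of cell type markers) and the settings were chosen with earlier results of these data known. Named were all members, and of each list the widest differences of at least 1.5-fold, up to 4 per direction, and the 3 brightest genes. For ligands, receptors and IKK genes any measured gene could be named. Genes named beyond this rule are markers below the floor, target genes below it and target genes with a consensus match. Also beyond it are the MHC class II genes RT1-Ba, RT1-Bb, RT1-DMa and RT1-DMb, chosen after their values were seen, and those the text gives as chosen likewise. Other settings were floors at the 35th and 65th percentiles, log2 of the value plus 32, quantile normalisation, median centring, removal of a loess trend (span 0.3), scaling to poly-A spikes, and the mean of a gene's probe sets. Python 3.11.15, numpy 2.4.6, pandas 2.3.3, scipy 1.17.1 and statsmodels 0.14.6 were used.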

Additional observations from a re-analysis of the deposited data

How the results depend on the processing

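Counts are of genes at least 1.5-fold apart and medians are log2 differences, NKR-P1B+ minus Ly49s3+. Scaling to poly-A spikes gave 5 members higher in NKR-P1B+ cells and a median of 0.82 for the members, 9 genes and 0.50 for the IKK list, 4 and 0.56 for the non-canonical arm, 7 higher, 0 lower and 0.57 for the other inhibitors, 4 and 0.92 for receptors, a median of 0.54 for ligands, and 25 higher, 0 lower and 0.80 for target genes. By it 38.0% of all measured genes were 1.5-fold or more higher in NKR-P1B+ cells and 1.03% in Ly49s3+ cells. With log2 of the value plus 32 no member was 1.5-fold apart (0, with Nfkb2 at 0.56 and Nfkbib at 0.50), and the non-canonical arm had 1, receptors 2 and target genes 0 lower. With the floor at the 35th percentile the non-canonical arm had 1, receptors 2 higher and 1 lower with a median of 0.24, ligands 2 lower and target genes 3 lower. With the floor at the 65th percentile ligands had 0 lower. Quantile normalisation and the loess trend each gave 2 receptors higher and 0 target genes lower. Averaging probe sets gave medians of 0.050 for the IKK list and 0.31 for target genes, and 0 target genes lower. Over all measured genes the shares higher in NKR-P1B+ and in Ly49s3+ cells were 3.03% and 2.49% with log2 of the value plus 32. With the floor at the 35th percentile they were 6.83% and 9.75%, and at the 65th 3.89% and 3.46%. Quantile normalisation gave 5.78% and 4.88%, the loess trend 5.74% and 4.96%, and averaging probe sets 4.93% and 5.30%. The other 135 of 168 values of the members and pathway lists stayed within 1.5 times (counts) or within a set limit (medians). That limit is the pooled probe set SD of 0.27 divided by the square root of the list's number of measured genes. For the values that moved the cause was not tested. No paired analysis was possible because each population has 1 array, which also left no replicate to leave out. Of the members, Nfkbiz rests on 1 of 2 probe sets and the others on their only one, and the lowest signal of a measured member was 121, for Relb.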
